A study of Mus musculus with 11 samples.

Results

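The 9 genes described here encode transcription factors that set the identity of myeloid cells: Id2, Runx3, Irf4, Irf8, Spi1, Klf4, Batf3, Zeb2 and Maf. They were taken from the deposited expression table by their mouse gene symbol, 9 of 21860 genes, and all 9 were among the 13095 genes that were tested because 2 or more samples reached a value of 10. Monocytes from mouse bone marrow were cultured for 6 days with growth factors of the skin, CD11b-low EpCAM+ cells were sorted, and their RNA was sequenced in 11 samples. The cultures asked how a Notch ligand and an activator of the aryl hydrocarbon receptor (Ahr) change cells that are becoming like Langerhans cells, the EpCAM+ phagocytes of the epidermis.

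All 5 groups received GM-CSF at 20 ng/ml. The TGFβ/IL-34 group (n = 2) also received 5 ng/ml of TGFβ and 8 µg/ml of IL-34. The TGFβ/IL-34/Jag1 group (n = 3) had Jagged-1 (Jag1), a Notch ligand, added to these. The TGFβ/IL-34/FICZ group (n = 2) had FICZ, a ligand of Ahr, in place of Jag1, and the TGFβ/IL-34/Jag1/FICZ group (n = 3) had both. The Jag1 only group (n = 1) had GM-CSF and Jag1 without TGFβ or IL-34, so it has no replicate and no test. No dose of FICZ is used here. The sample labels give every culture as one with OP9, a mouse bone marrow stroma line, and the methods of the study list an OP9 line that carries Jag1. The summed level of 10 stroma genes, however, was 12.8 to 38.0 normalized counts in the 4 cultures without Jag1 and 420 to 4635 in the 7 with it. The effect of Jag1 and that of the stroma cells cannot be told apart in these samples.

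Langerhans cells are unusual in that they share features of macrophages and of dendritic cells. Spi1 encodes PU.1, the factor on which the whole myeloid lineage rests, and TGFβ, Id2 and Runx3 are all needed for Langerhans cells to form. Irf8, Batf3 and Irf4 divide the dendritic cell lineage into its conventional subsets, while Klf4, Zeb2 and Maf are tied to monocytes and macrophages. All 9 were present in every sample, at very different levels. Per kilobase of the canonical transcript and averaged over the 11 samples, Irf8 stood highest at 6463 normalized counts, followed by Id2 at 5044, Spi1 at 3690, Runx3 at 3271, Batf3 at 2841 and Irf4 at 1903. Zeb2 (62.8), Maf (37.7) and Klf4 (23.8) formed a group far below these on the same scale. The scarcest value of any member, Klf4 in replicate 1 of TGFβ/IL-34/FICZ, rested on about 26.5 reads.

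The members differed in how far they varied. The ratio of the highest to the lowest sample was 8.51 for Batf3, 7.92 for Zeb2, 5.69 for Maf, 5.08 for Klf4, 4.23 for Runx3 and 3.22 for Id2. It was smallest for Spi1 (2.38), Irf4 (2.35) and Irf8 (2.22). Changes between groups are given below as log2 fold changes with their standard error (SE), on the scale of log2 of the normalized count plus 1, and a gene passed when its limma p-value, adjusted over all 13095 genes, was under 0.05. In bulk RNA, fewer cells of a type and less RNA per cell cannot be told apart.

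**Figure D1:**
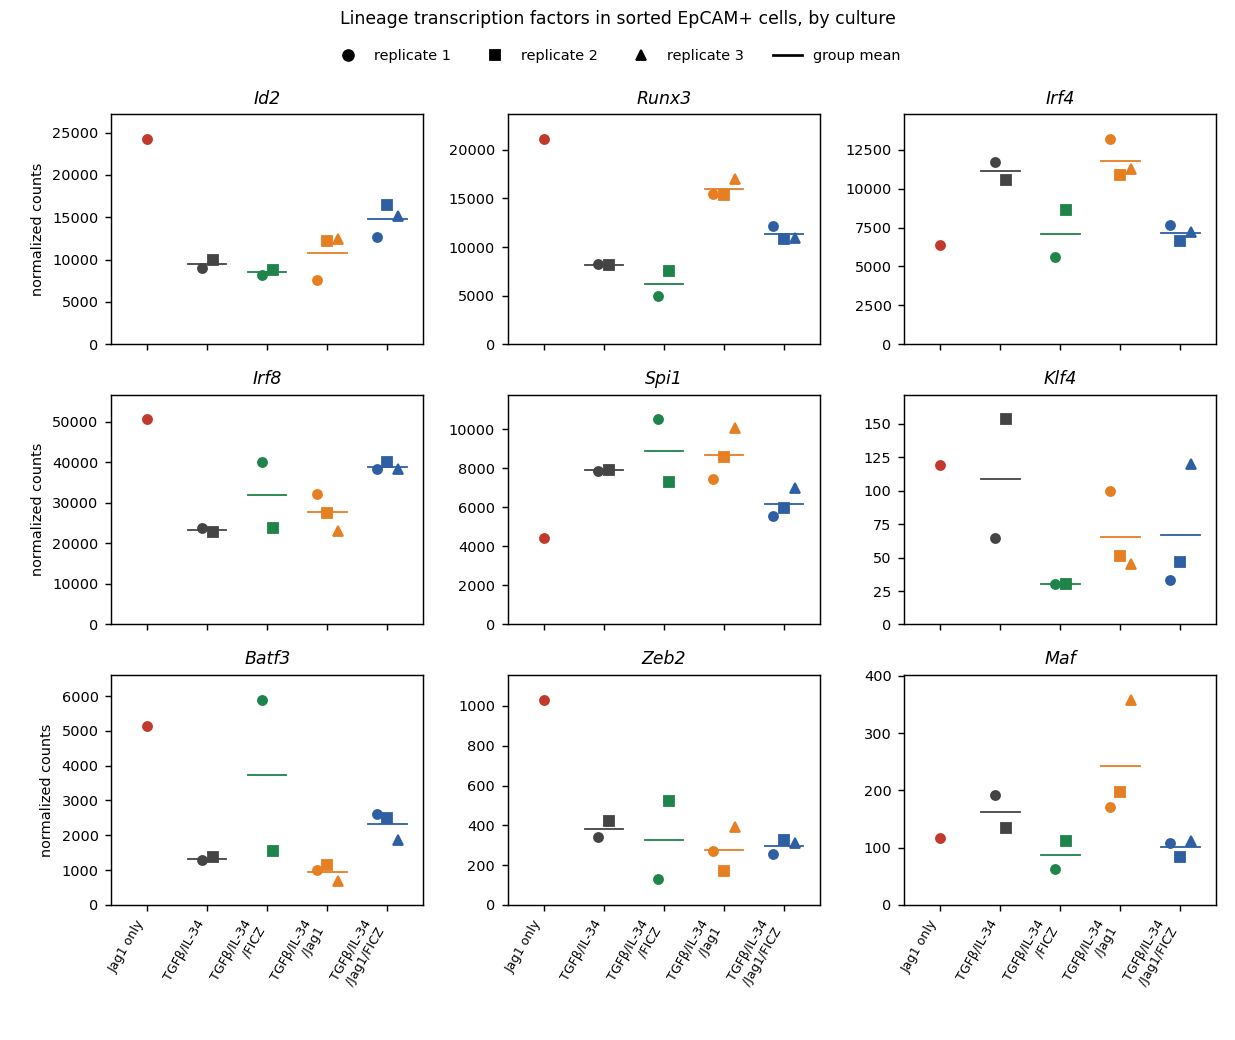
Normalized counts (vertical axes, each from 0) of the 9 transcription factors in the 11 samples, by culture; points are samples, shaped by replicate number, and lines are group means. Runx3 is higher in every culture with Jag1 than in any culture without it, Irf4 is lower in every sample with FICZ than in those of the same TGFβ/IL-34 cultures without it, and the Jag1 only sample is the highest for Id2, Runx3, Irf8 and Zeb2.

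Runx3, a Runt-domain factor needed for Langerhans cells, was the member that moved with Jag1. Its gene lies on the plus strand of chromosome 4, at 134847952 to 134905301 of GRCm39. The normalized counts of Runx3 were 8205 and 8196 in TGFβ/IL-34 and 15487, 15387 and 16967.5 in TGFβ/IL-34/Jag1. With FICZ they were 4998 and 7486 without Jag1 and 12165, 10853 and 10975 with it. The 6 TGFβ/IL-34 samples with Jag1 were all above the 4 without it, and within each pair of groups there was no overlap. Runx3 rose with Jag1 from 8201 ± 6.53 (SD, n = 2) to 15947 ± 885 (SD, n = 3), which is 0.96 ± 0.19 on the log2 scale (SE, limma adjusted p = 0.0141). With FICZ present it rose from 6242 ± 1759 (SD, n = 2) to 11331 ± 725 (SD, n = 3), by 0.89 ± 0.19 (SE, adjusted p = 0.0440). The latter call was lost when the replicate number, which marks a shared experiment, was fitted as a block (adjusted p = 0.0889), and also when any 1 of the TGFβ/IL-34/Jag1/FICZ samples or replicate 1 of TGFβ/IL-34/FICZ was left out (0.0514 to 0.162). The former was lost when either TGFβ/IL-34 sample was left out (adjusted p = 0.123 and 0.152), with log2 fold changes of 0.96 in both cases.

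Runx3 was the single member that passed for Jag1 in either setting. Over all tested genes 6.60% passed for Jag1 without FICZ, 2.64% upward and 3.96% downward, and 2.02% passed for Jag1 with FICZ, 1.41% upward and 0.603% downward. One of 9 is a share that this background allows, and the change of Runx3 stands on its own values. FICZ was followed by lower Runx3 means in both settings without passing, by −0.49 ± 0.17 with Jag1 (SE, adjusted p = 0.0718) and −0.42 ± 0.21 without it (adjusted p = 0.293). The ranges did not overlap in either of these comparisons.

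Notch signals reach DNA through the factor RBPJ, and the upstream sequence of Runx3 is shown because Runx3 followed Jag1. RefSeq gives 2 start sites of Runx3 in the promoter table used here, whose build is GRCm38.p6, an older one than that of the gene coordinates. The 250 bases before the first, at chr4:135120395-135120644 on the plus strand, hold the RBPJ core TGGGAA once, at −154 to −149 from the start site, in capitals here.
Runx3 promoter: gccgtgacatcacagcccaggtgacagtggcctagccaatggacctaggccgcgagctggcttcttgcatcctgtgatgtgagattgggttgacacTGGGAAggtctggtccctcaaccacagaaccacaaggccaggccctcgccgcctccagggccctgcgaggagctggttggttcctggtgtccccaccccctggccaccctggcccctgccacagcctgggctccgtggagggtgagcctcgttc
The 250 bases before the second start site hold no such letters on either strand. The core occurs on at least 1 strand in 21.6% of all 32851 promoter windows of this length, and a match is only a description of the letters. Irf8, which did not pass for Jag1, also has the RBPJ core before a start site, at −242 to −237.

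Id2 is an inhibitor of E proteins that Langerhans cells and conventional dendritic cells depend on. It lies on the minus strand of chromosome 12, at 25143798 to 25147282. Its normalized counts were 8999 and 9989 in TGFβ/IL-34, 8169.5 and 8799 in TGFβ/IL-34/FICZ, 7538, 12231 and 12378.5 in TGFβ/IL-34/Jag1, and 12707, 16482 and 15127 in TGFβ/IL-34/Jag1/FICZ. Among these the samples with both Jag1 and FICZ were the highest, above every sample of the other 3 groups, while replicate 1 of TGFβ/IL-34/Jag1 was the lowest of all. No contrast of Id2 passed. The mean moved by 0.79 ± 0.23 with Jag1 in the presence of FICZ (SE, adjusted p = 0.110) and by 0.14 ± 0.23 in its absence (adjusted p = 0.839, 95% interval −0.38 to 0.66). The former was 0.85 when TGFβ/IL-34/FICZ replicate 2 was left out, which leaves 1 sample in that group. With both agents against neither the difference was 0.63 ± 0.23 (adjusted p = 0.179), and for FICZ in the presence of Jag1 it was 0.49 ± 0.21 (adjusted p = 0.142). The study named Id2 for these samples, so its direction is not independent evidence.

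Irf4, a factor of the type 2 conventional and monocyte-derived dendritic cells, was lower with FICZ. It lies on the plus strand of chromosome 13, at 30933209 to 30950959. The normalized counts of Irf4 were 13194, 10870.4 and 11278 in TGFβ/IL-34/Jag1 and 7645, 6619 and 7190.4 in TGFβ/IL-34/Jag1/FICZ. Without Jag1 they were 11727 and 10574.5, against 5620.0 and 8604 with FICZ. Neither pair of groups overlapped, and among the TGFβ/IL-34 cultures the 5 samples with FICZ were all below the 5 without it. The Jag1 only sample, also without FICZ, was at 6393. In the presence of Jag1, Irf4 fell from 11781 ± 1241 to 7151 ± 514 (SD, n = 3 each), which is −0.72 ± 0.18 on the log2 scale (SE, adjusted p = 0.0198). Without Jag1 the difference was of like size, −0.68 ± 0.22, but did not pass (SE, adjusted p = 0.285), and the interaction was −0.04 with a 95% interval of −0.67 to 0.59. The call with Jag1 was lost without replicate 1 of the TGFβ/IL-34/Jag1 samples (0.0720) or without any 1 of the TGFβ/IL-34/Jag1/FICZ samples (0.0534 to 0.0921).

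Ahr binds a core of 5 bases, GCGTG, in the genes it controls, so the upstream sequence of Irf4 is given. The 250 bases before its start site, at chr13:30748983-30749232 on the plus strand of GRCm38.p6 (RefSeq), hold this core once on the opposite strand, read as CACGC at −80 to −76 and set in capitals.
Irf4 promoter: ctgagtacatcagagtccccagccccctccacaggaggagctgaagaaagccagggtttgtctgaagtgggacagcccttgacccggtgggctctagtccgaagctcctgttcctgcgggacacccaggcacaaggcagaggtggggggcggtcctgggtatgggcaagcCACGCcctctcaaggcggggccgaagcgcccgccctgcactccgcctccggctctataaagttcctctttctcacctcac
Either strand of 28.2% of the 32851 windows holds these 5 letters, so 1 match in a window is common and is no evidence of binding. The same letters lie before start sites of Zeb2, which did not pass for FICZ. Maf was not found in the promoter set.

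Maf, a large Maf factor of macrophages, was the other member that passed for FICZ. It lies on the minus strand of chromosome 8, at 116409632 to 116434579. In TGFβ/IL-34/Jag1 its normalized counts were 170.2, 198 and 358, against 108, 82.9 and 112 in TGFβ/IL-34/Jag1/FICZ. Without Jag1 they were 191 and 134, against 63.0 and 111 with FICZ. Among the TGFβ/IL-34 cultures, all 5 samples with FICZ were below all 5 without it, as for Irf4. With Jag1 present, Maf fell from 242 ± 102 to 101 ± 15.9 (SD, n = 3 each), by −1.19 ± 0.35 on the log2 scale (SE, adjusted p = 0.0418). Without Jag1 the difference was −0.93 ± 0.43 and did not pass (SE, adjusted p = 0.285). The call was lost without any 1 of the 6 samples other than replicate 1 of TGFβ/IL-34/Jag1 (0.0708 to 0.153), with no filter on low values (0.0664), and with the experiment code of the sample file (0.0586) or the flow cell (0.0746) as a block.

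Irf4 and Maf were thus 2 of 9 members that passed for FICZ in the presence of Jag1, both downward. That contrast was the widest of the series, with 17.7% of all tested genes passing, 10.9% upward and 6.71% downward. The count of members is near that background, and it depended on the fit. With quantile normalization 5 members passed, where 18.7% of all genes did, and in a fit of these 2 groups alone it was 6, where 27.6% did. It fell to 1 with no filter or with the experiment code of the sample file or the flow cell as a block, and to 0 or 1 when a sample was left out. Without Jag1, 0.0229% of all genes passed for FICZ and no member did, although 3 (Irf4, Klf4 and Batf3) had an unadjusted limma p under 0.05, as 17.4% of all genes did. The replicates of TGFβ/IL-34/FICZ stood far apart: 34.8% of all tested genes differed between them by at least 2-fold, against 7.17% in TGFβ/IL-34. Between the furthest of 3 samples it was 22.0% in TGFβ/IL-34/Jag1 and 14.1% in TGFβ/IL-34/Jag1/FICZ. By their descriptions the TGFβ/IL-34/FICZ replicates also differ in experiment code and flow cell. No TGFβ/IL-34 sample shares either with replicate 1 of TGFβ/IL-34/FICZ, so these and FICZ cannot be told apart for that replicate. With replicate 2 left out, and replicate 1 assumed to vary like the other groups, 6 members passed for FICZ without Jag1 (Batf3, Irf4, Irf8, Maf, Runx3 and Zeb2), in a fit in which 43.8% of all genes passed. With replicate 1 left out instead, no member passed, and the difference of Zeb2 went from −1.54 to 0.46.

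**Figure D2:**
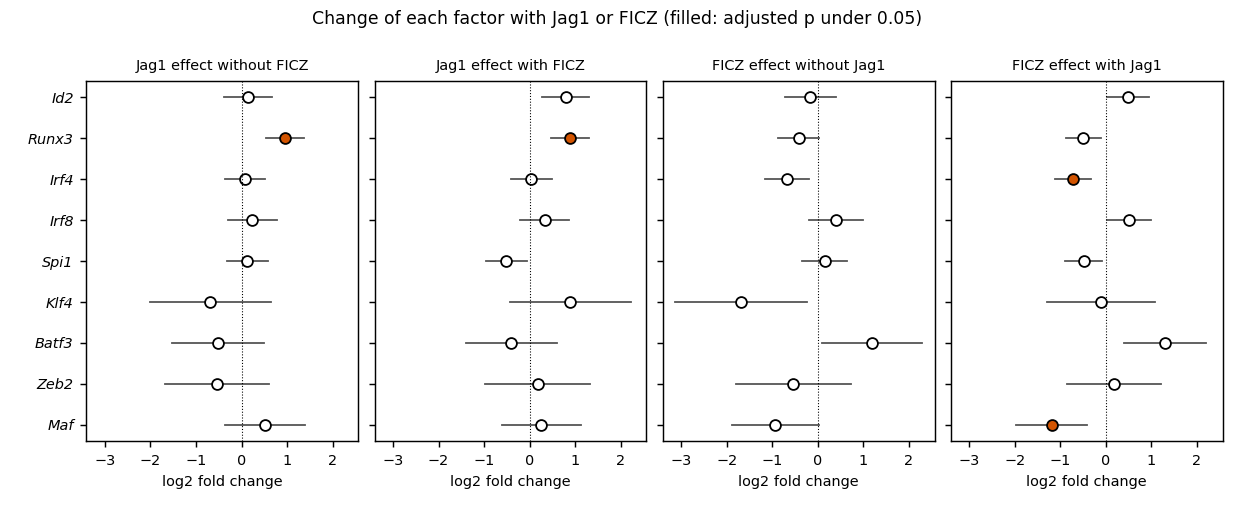
Log2 fold change of each transcription factor (horizontal axes, points) with its 95% interval (lines) for Jag1 and for FICZ, each in the absence and presence of the other; filled points passed at an adjusted p under 0.05. Runx3 passed for Jag1 in both settings at 0.96 and 0.89, and Irf4 (−0.72) and Maf (−1.19) passed for FICZ in the presence of Jag1.

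Batf3, an AP-1 factor that the type 1 conventional dendritic cells need, was higher with FICZ on average and lay at the edge of the threshold. The gene is on the plus strand of chromosome 1, at 190830044 to 190841142. Batf3 stood at 1000.5, 1142 and 692.5 normalized counts in TGFβ/IL-34/Jag1 and at 2612.5, 2491 and 1849 in TGFβ/IL-34/Jag1/FICZ, with no overlap. The difference was 1.31 ± 0.40 (SE, adjusted p = 0.0501), and it passed when the replicate number was a block (adjusted p = 0.0474). Over all settings other than leaving out a sample, its adjusted p ran from 0.000796 to 0.0936. It did not pass when any 1 of these samples was left out (0.0746 to 0.165). Without Jag1 the counts were 1284 and 1370.5 against 5895 and 1554 with FICZ, so that 1 of the FICZ samples carried most of the mean difference of 1.19 ± 0.50 (SE, adjusted p = 0.285). Batf3 differed 3.79-fold between these FICZ samples. The difference for Jag1 with FICZ was −0.40 ± 0.45 (SE) with all samples. With replicate 2 of the FICZ samples left out it became −1.36, and with replicate 1 left out it became 0.56. Either fit leaves 1 sample in that group.

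Irf8, which directs the type 1 conventional and plasmacytoid dendritic cells, was the most abundant member in length-scaled counts. Its gene lies on the plus strand of chromosome 8, at 121463096 to 121485659. Its normalized counts were 23783 and 22754 in TGFβ/IL-34, 39999.8 and 23845 in TGFβ/IL-34/FICZ, 32225.5, 27518 and 23111 in TGFβ/IL-34/Jag1, and 38292, 40104 and 38411 in TGFβ/IL-34/Jag1/FICZ. The group with both agents was tight and above both groups without FICZ, while the FICZ group without Jag1 spanned from the level of the cultures with neither agent to that of the cultures with both. Irf8 passed in no contrast: the difference was 0.51 ± 0.22 for FICZ with Jag1 (SE, adjusted p = 0.144) and 0.74 ± 0.24 for both agents against neither (adjusted p = 0.126).

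For Jag1 and FICZ together against TGFβ/IL-34, no member passed, while 4.48% of all genes did, 3.12% upward and 1.37% downward. Id2, Runx3, Irf4 and Irf8 had an unadjusted limma p under 0.05 there, as did 17.8% of all genes. The Irf4 difference was −0.64 ± 0.20 (SE, adjusted p = 0.110) and that of Runx3 0.46 ± 0.19 (adjusted p = 0.225). Fitted on these 2 groups alone, 6 members passed: Id2, Runx3, Irf8 and Batf3 upward, and Irf4 and Spi1 downward, where 23.3% of all genes passed. The number of members that pass in this contrast therefore depends on which groups set the spread.

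Spi1, which encodes PU.1, varied little and, among the TGFβ/IL-34 cultures, had its lower values where both agents were present. It is on the plus strand of chromosome 2, at 90912562 to 90946101. The normalized counts were 7885 and 7898 in TGFβ/IL-34, 10509.8 and 7284 in TGFβ/IL-34/FICZ, 7435.5, 8593 and 10054 in TGFβ/IL-34/Jag1, and 5544, 5958 and 6991 in TGFβ/IL-34/Jag1/FICZ. The last group did not overlap any of the other 3. No contrast of Spi1 passed, with differences of −0.49 ± 0.18 for FICZ with Jag1 (SE, adjusted p = 0.0956) and −0.51 ± 0.20 for Jag1 with FICZ (adjusted p = 0.184). Against these, the difference was 0.15 ± 0.22 for FICZ without Jag1 and 0.13 ± 0.20 for Jag1 without FICZ (SE), and the interaction was −0.64 ± 0.29 (SE, adjusted p = 0.267). Without replicate 2 of TGFβ/IL-34/FICZ, Jag1 with FICZ (−0.78, adjusted p = 0.00716) and the interaction (−0.91, adjusted p = 0.0122) passed. Without replicate 1 of that group they were −0.25 (adjusted p = 0.591) and −0.38 (adjusted p = 0.496).

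Klf4, a factor of monocyte differentiation, was the scarcest member. It is on the minus strand of chromosome 4, at 55527139 to 55532528. Klf4 stood at 64.5 and 153 normalized counts in TGFβ/IL-34, 30.4 and 30.2 in TGFβ/IL-34/FICZ, 99.5, 51.2 and 45.6 in TGFβ/IL-34/Jag1, and 33.1, 46.7 and 120.0 in TGFβ/IL-34/Jag1/FICZ. The FICZ samples without Jag1 were the lowest of all, and the other groups overlapped. The difference for FICZ was −1.68 ± 0.65 without Jag1 (SE, adjusted p = 0.285) and −0.11 ± 0.53 with it (adjusted p = 0.930), and the interaction was 1.58 with a 95% interval of −0.30 to 3.45 (adjusted p = 0.316). Klf4 is also expressed by stroma cells. Within TGFβ/IL-34/Jag1/FICZ it was highest in replicate 3, where the stroma genes summed to 4635 normalized counts against 687 and 1762 in replicates 1 and 2, but in TGFβ/IL-34/Jag1 the highest stroma sum (1083, replicate 2) stood beside 51.2 of Klf4. The highest Klf4 of all samples, 153 in replicate 2 of TGFβ/IL-34, stood beside the lowest stroma sum, 12.8. The part of stroma RNA in the level of Klf4 was not tested.

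Zeb2, a repressor that helps cells keep a monocyte or macrophage fate, passed in no contrast. It lies on the minus strand of chromosome 2, at 44873644 to 45007464. Zeb2 stood at 343 and 419.9 normalized counts in TGFβ/IL-34, 130.3 and 524 in TGFβ/IL-34/FICZ, 268, 169.5 and 389 in TGFβ/IL-34/Jag1, and 254, 325 and 311 in TGFβ/IL-34/Jag1/FICZ. Both FICZ samples without Jag1, at a ratio of 4.02, held between them the lowest and the highest of these 10 values. The difference was −0.54 ± 0.52 for Jag1 without FICZ (SE, adjusted p = 0.671) and 0.18 ± 0.46 for FICZ with Jag1 (adjusted p = 0.854). For the interaction it was 0.71, with a 95% interval of −0.91 to 2.34. Without replicate 2 of TGFβ/IL-34/FICZ, which held the highest value, the interaction was 1.71, and without replicate 1 it was −0.29. Either fit leaves 1 sample in that group. No member passed in the interaction at all, where 1.39% of all genes did, and none had an unadjusted limma p under 0.05.

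The Jag1 only sample stood apart in several members, as it did in the table as a whole. Its normalized counts were 24236 for Id2, 21123 for Runx3, 50592 for Irf8 and 1032 for Zeb2, each above all 10 other samples. Spi1, at 4412, was below all of them. Irf4 (6393), Klf4 (119), Batf3 (5141) and Maf (116) lay within the range of the others. These are 5 of 9 members outside that range, where 38.2% of all tested genes were. Against the mean of TGFβ/IL-34/Jag1, 3 members were at least 2-fold apart, where 29.5% of all genes were: Id2 by 1.21, Batf3 by 2.47 and Zeb2 by 1.98, all on the log2 scale and all higher without TGFβ and IL-34. Spi1 (−0.97), Maf (−0.98) and Klf4 (0.94) came close to that size. Epcam, by which the cells were sorted, was at 657 normalized counts in this sample and at 3952 to 14377 in the other 10, so the sorted cells differ from the rest in a defining marker as well.

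Some relatives of the members, from the same gene families, had larger fold changes than the members. Of 32 tested family genes, 5 passed for Jag1 without FICZ (2 higher, 3 lower) and 7 for FICZ with Jag1 (3 higher, 4 lower), where 6.60% and 17.7% of all genes passed. In the Maf family, Maff and Mafk, small Maf factors, fell with FICZ in the presence of Jag1, as Maf did, by −0.59 (adjusted p = 0.0357) and −0.53 (adjusted p = 0.0336). Maff went from 1484 ± 172 to 985 ± 142 normalized counts and Mafk from 1076 ± 83.9 to 747 ± 54.1 (SD, n = 3 each). Both calls were lost when any 1 of several samples was left out, TGFβ/IL-34/Jag1 replicate 2 and TGFβ/IL-34/Jag1/FICZ replicates 1 and 2 among them, with adjusted p up to 0.147 for Maff and 0.139 for Mafk. When the code in the sample descriptions was the block, they were also lost (0.0536 and 0.0521), as was Maff with the code of the sample file (0.0565) and Mafk with the flow cell (0.0641).

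Among the relatives of Id2, Id3 fell with Jag1 from 1091 ± 222 (SD, n = 2) to 106 ± 66.8 (SD, n = 3), by −3.58 (adjusted p = 0.00256), in the contrast in which Id2 did not pass. Beside Runx3, Runx1 rose with FICZ in the presence of Jag1 by 1.46 (adjusted p = 0.0170), from 1457 ± 730.5 to 3731 ± 854 (SD, n = 3 each), where the mean of Runx3 was lower. Its call was lost when 1 of 4 samples was left out: TGFβ/IL-34/Jag1 replicates 1 and 2, and TGFβ/IL-34/Jag1/FICZ replicates 2 and 3 (0.0518 to 0.0687). Of the ETS relatives of Spi1, Ets1 rose with Jag1 by 2.09 (adjusted p = 0.00106) and Spib, a factor of B cells and plasmacytoid dendritic cells, fell by −1.86 (adjusted p = 0.0296). Fli1 rose with FICZ in the presence of Jag1 by 0.78 (adjusted p = 0.0352). In the interferon regulatory factor family, Irf1 rose with FICZ by 1.39 (adjusted p = 0.00120) and Irf7 fell by −2.46 (adjusted p = 0.00466), both in the presence of Jag1. Batf2 fell with Jag1 by −1.47 (adjusted p = 0.0185). Of the relatives of Klf4, Klf2 rose with Jag1 by 1.52 (adjusted p = 0.0435, or 0.0691 to 0.328 under the alternatives that lost the call), and Klf10 fell with FICZ in the presence of Jag1 by −1.52 (adjusted p = 0.0109).

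**Figure D3:**
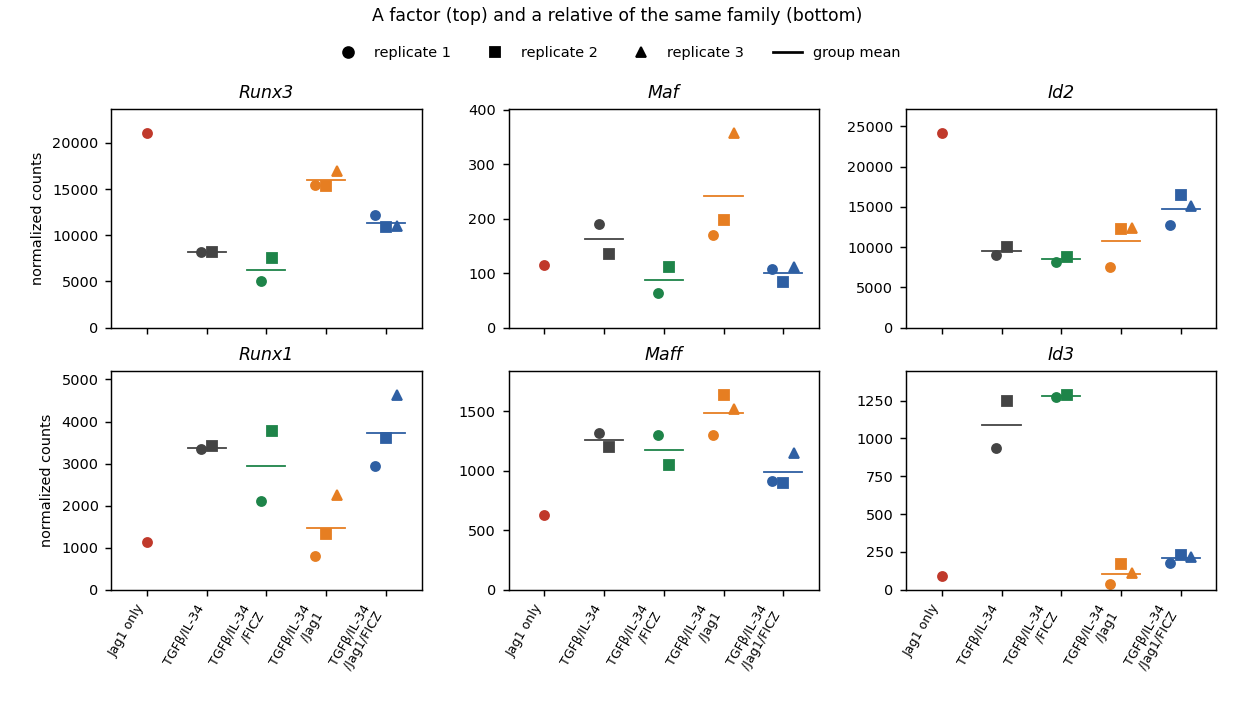
Normalized counts (vertical axes, each from 0) of Runx3, Maf and Id2 (top) and of a relative of each, Runx1, Maff and Id3 (bottom), in the 11 samples by culture; points are samples and lines are group means. Maff is lower in the 3 TGFβ/IL-34/Jag1/FICZ samples than in the 3 with Jag1 and no FICZ, and Id3 is low in every culture with Jag1 while Id2 is not.

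Fewer of the family genes passed in the other contrasts. For Jag1 with FICZ, 3 of 32 passed, where 2.02% of all genes did: Ets1 rose by 2.54 (adjusted p = 0.00211), Klf2 rose by 1.76 (adjusted p = 0.0499) and Id3 fell by −2.62 (adjusted p = 0.0298). The call of Klf2 was lost with the replicate number, which marks a shared experiment here, as a block (0.0783), with either experiment code (0.0775 and 0.0705) and under 13 alternatives in all. With both agents against neither, where 4.48% of all genes passed, 3 did: Ets1 rose by 2.73 (adjusted p = 0.00108), Irf7 fell by −3.14 (adjusted p = 0.00948) and Id3 fell by −2.38 (adjusted p = 0.0283). None passed for FICZ without Jag1 or in the interaction.

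The 35 factors that work with the members, or beside them in progenitors, were examined next. With FICZ in the presence of Jag1, 13 of them passed (5 higher, 8 lower), where 17.7% of all genes did. Factors of immature granulocytes and progenitors led the increases: of 7 C/EBP and progenitor factors, 4 passed upward and 1 downward. Cebpe rose from 6.89 ± 2.73 to 1238 ± 154 normalized counts (SD, n = 3 each), by 7.34 (adjusted p = 1.44e-06), Myb rose by 5.96 (adjusted p = 3.73e-05) and Gfi1 by 3.996 (adjusted p = 0.00295). The nuclear receptors Rxra and Nr1h3 fell by −2.31 (adjusted p = 0.000965) and −2.14 (adjusted p = 0.00787), and Tfec, a factor related to Mitf, fell by −2.17 (adjusted p = 0.000305). For Jag1 without FICZ 4 of the 35 passed, all lower, where 6.60% of all genes passed, among them Cebpe by −4.31 (adjusted p = 0.000180), Myb by −3.19 (adjusted p = 0.00557) and Gata2 by −2.89 (adjusted p = 0.000312). The fourth was Egr2, by −2.69 (adjusted p = 0.00541). Ahr itself, a Langerhans cell factor that the study named for these samples, fell with FICZ in the presence of Jag1 by −1.34 (adjusted p = 0.0355). In the interaction 3 passed, where 1.39% of all genes did: Cebpe at 4.86 (adjusted p = 0.00562), Gata2 at 3.26 (adjusted p = 0.00631) and Myb at 4.51 (adjusted p = 0.0293).

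With both agents against neither, 5 of the 35 passed, where 4.48% of all genes did. Cebpe (3.04, adjusted p = 0.00324), Myb (2.78, adjusted p = 0.0174) and Nr4a2 (2.07, adjusted p = 0.00549) rose, and Tfec (−1.87, adjusted p = 0.00657) and Mitf (−1.27, adjusted p = 0.0246) fell. For Jag1 with FICZ, 3 passed, where 2.02% of all genes did: Nr4a2 rose by 2.26 (adjusted p = 0.00772), Stat3 rose by 1.15 (adjusted p = 0.0260) and Tfec fell by −1.52 (adjusted p = 0.0262, or 0.0634 with the replicate block, which ends the call, as both experiment codes do). None passed for FICZ without Jag1.

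Markers of granulocyte progenitors moved with these changes. The summed level of 5 such genes (Elane, Mpo, Prtn3, Ctsg and Ms4a3) was 75.0 to 255 normalized counts in TGFβ/IL-34/Jag1 and 4424 to 7344 in TGFβ/IL-34/Jag1/FICZ, with 4 of 5 genes higher. It was 296 to 464 in TGFβ/IL-34, 2221 to 4127 in TGFβ/IL-34/FICZ and 433 in the Jag1 only sample. Mpo was the gene that was not higher. It was at 3.82, 4.29 and 3.75 in TGFβ/IL-34/Jag1/FICZ and highest in the Jag1 only sample, at 27.2. The summed level of 4 mast cell and basophil genes was 132 to 186 in TGFβ/IL-34/Jag1 and 2270.3 to 4590.4 in TGFβ/IL-34/Jag1/FICZ. This sum was 656 to 861 in TGFβ/IL-34, 4036 to 4037 in TGFβ/IL-34/FICZ and 2335 in the Jag1 only sample, with Fcer1a at 0 in every sample. These values stand beside the FICZ differences of Irf4, Maf and Batf3 given above, and the part of such cells in them was not tested. Siglech, a marker of plasmacytoid dendritic cells, was at 30.0, 158 and 161 in TGFβ/IL-34/Jag1, at 3.28 and 5.49 in TGFβ/IL-34 and at 0 to 2.54 in the other 6 samples. It rose with Jag1 without FICZ by 4.14 (adjusted p = 0.0314) and fell with FICZ in the presence of Jag1 by −5.93 (adjusted p = 0.00116). Of the other 3 genes of that list, Ly6d was at 0 in 10 samples, Ccr9 at 3.96 to 74.0 and Bst2, which many cells express, at 8266 to 32538. The sums for lymphocytes and erythroid cells stayed at or under 76.5 and 23.1, and the lymphocyte gene Gzma rose with FICZ in the presence of Jag1, from 0 to 3.99 up to 40.9 to 65.5 (adjusted p = 0.00130).

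**Figure D4:**
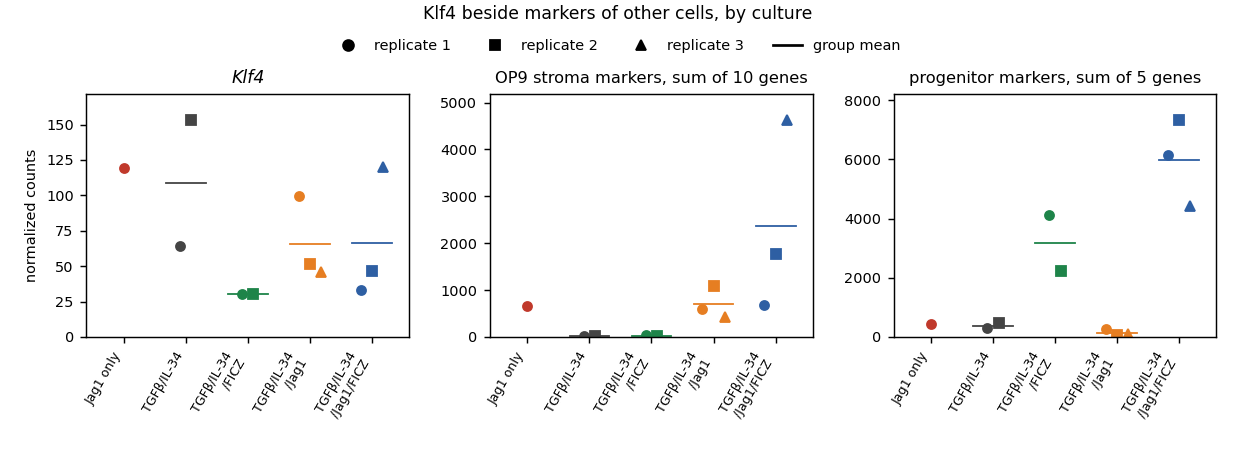
Normalized counts (vertical axes, each from 0) of Klf4, of 10 summed OP9 stroma genes and of 5 summed granulocyte progenitor genes in the 11 samples by culture; points are samples and lines are group means. The stroma sum is 12.8 to 38.0 in the cultures without Jag1 and 4635 in replicate 3 of TGFβ/IL-34/Jag1/FICZ, while the highest Klf4 (153) is in the sample with the lowest stroma sum.

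Genes that mark the fates served by these factors were examined as a further list. Of 33 tested, 15 passed for Jag1 without FICZ (6 higher, 9 lower) and 18 for FICZ with Jag1 (7 higher, 11 lower), where 6.60% and 17.7% of all genes passed. Whether these shares differ from those of all genes was not tested. Of the 8 macrophage genes, 4 rose and 2 fell with Jag1, with C1qa (4.01, adjusted p = 0.00249) and C1qc (3.41, adjusted p = 0.00428), complement genes, rising most. Of these 8, 5 fell with FICZ in the presence of Jag1, C1qc by −3.64 (adjusted p = 0.000610). Of the 7 monocyte genes, 5 fell with Jag1, among them Ly6c2 by −3.91 (adjusted p = 0.000446) and the chemokine receptor gene Ccr2 by −3.86 (adjusted p = 0.00253). With FICZ in the presence of Jag1, 5 of the 7 rose, Plac8 by 5.28 (adjusted p = 1.02e-05) and Ly6c2 by 5.25 (adjusted p = 1.67e-05).

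Of the 6 tested genes of type 1 conventional dendritic cells, the cells that Irf8 and Batf3 serve, none passed for Jag1 without FICZ and Naaa fell with FICZ in the presence of Jag1, by −0.65 (adjusted p = 0.0180). Among the 7 genes of type 2 and monocyte-derived dendritic cells, served by Irf4 and Klf4, 3 passed for Jag1 without FICZ (1 higher, 2 lower). Mgl2 rose by 4.02 (adjusted p = 0.00220) and Cd209a, a scarce gene, fell by −5.39 (adjusted p = 0.00611). The chemokine gene Ccl17 was at 28755 and 29265 normalized counts in TGFβ/IL-34 and at 1882, 2643 and 1853 in TGFβ/IL-34/Jag1. With FICZ in the presence of Jag1, 4 of the 7 passed (2 higher, 2 lower). Mgl2 fell by −4.003 (adjusted p = 0.000438) and Ccl17 rose by 2.19 (adjusted p = 8.41e-05). Ccl17 then stood at 8377 to 10265, below both TGFβ/IL-34 samples. Of the 5 Langerhans cell genes, 1 passed for Jag1 without FICZ: Epcam rose by 1.15 (adjusted p = 0.0412), and the median over the 5 was 1.15. All cells were sorted on EpCAM, so the level of Epcam is not independent of the sort. The other 4, Cd207, Cldn1, Mfge8 and Cdh1, did not pass. Cd207, Cldn1 and Mfge8 were higher with Jag1 without overlap, but the share of all genes with such a gap was not counted. Cd207 was at 157 and 154 normalized counts in TGFβ/IL-34 and at 1366, 1784 and 1699 in TGFβ/IL-34/Jag1. In the same order, Cldn1 was at 6561 and 6161 against 14743 to 15498, and Mfge8 at 121691 and 124389 against 260985 to 275951. With FICZ in the presence of Jag1, 3 of the 5 fell: Cd207, which encodes langerin, by −6.27 (adjusted p = 0.000908), Cldn1 by −3.54 (adjusted p = 0.00156) and Mfge8 by −2.22 (adjusted p = 0.000804). The study named these 4 genes for these samples, so their directions are not independent evidence.

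The fate genes passed in smaller numbers in the other contrasts. For Jag1 with FICZ it was 3 (2.02% of all genes): Mertk rose by 2.26 (adjusted p = 0.0167), Fcgr1 fell by −3.35 (adjusted p = 0.0294) and Ccl17 fell by −2.20 (adjusted p = 0.00240). With both agents against neither it was 6 (4.48% of all genes), among which Plac8 rose by 2.88 (adjusted p = 0.00390), Mrc1 fell by −5.71 (adjusted p = 0.0327), Fcgr1 fell by −3.996 (adjusted p = 0.00827) and Dcstamp fell by −2.25 (adjusted p = 0.0169). In the interaction it was 4 (1.39% of all genes), with Ly6c2 at 4.01 (adjusted p = 0.0135), Ccr2 at 4.29 (adjusted p = 0.0369), Ccl17 at 1.59 (adjusted p = 0.0433) and Mgl2 at −3.84 (adjusted p = 0.0444), and FICZ without Jag1 had none. The comparisons share their control samples, so the counts are given side by side and not set against each other.

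For the 3 members that passed in a contrast, the closest patterns over the 11 samples were sought among 10918 genes, by the root mean square difference between the centred log2 values. For Runx3, whose own values spread by 0.58 around their mean, these were Plek (0.134), a cytoskeletal adaptor of blood cells, Nol4l (0.148) and the small GTPase gene Rap2a (0.182). For Irf4, with a spread of 0.40, they were Ube2q2 (0.112), Fbxw7 (0.143), both of the ubiquitin system, and Zfp942 (0.144). For Maf, with a spread of 0.65, they were Jmy (0.175), Slc46a3 (0.211) and Usp6nl (0.225). No other member was among the closest 3 of these genes. Antisense RNA genes overlap Id2, Runx3, Spi1, Batf3, Zeb2 and Maf in the GENCODE annotation, and as the strand of counting is not stated, reads of both strands cannot be told apart there.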

How the data were processed

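RNA of sorted CD11b-low EpCAM+ cells was measured in 11 samples of 5 groups, grouped by their titles. The authors used salmon with Ensembl transcripts of GRCm39, tximport for gene sums and DESeq2 for scaling. Versions are not given in the sources used here. The deposited values are a normalized signal per gene, called normalized counts here, and totalled 21.3 to 27.8 M per sample. Low values of single-transcript genes fell on whole multiples of a step, with a tolerance of 0.1 steps, in 80.3% to 98.4% of cases. With every gene included, 51.9% to 58.1% did, so reads could not be recovered and count models were left out. From the step, libraries held about 20.6 to 24.3 M reads, and counting error weighs most on the scarce members. Mitochondrial genes took 0.895% to 2.61% of the total. All columns were mapped to samples. The series text calls FICZ an Ahr antagonist and the study calls it an agonist.

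Genes that reached 10 in 2 or more samples were fitted as log2(value + 1). The fit used limma 3.58.1 under R 4.3.3, with lmFit, contrasts.fit and a trended eBayes, over all 11 samples and 1 mean for each group. Tests were two-sided, adjusted by Benjamini-Hochberg per contrast over all 13095 genes, with a threshold of 0.05. The labels do not say whether samples came from separate animals, so p-values measure the spread between these samples. A group left with 1 sample was assumed to have the spread of the rest. The fit was tested on simulated data.

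The members and the lists of relatives, partners, fate genes and markers were chosen with earlier results of these data known. All members are named. Some genes of the family list are not reported here. From each list, up to 3 genes per direction and contrast are named, those with the largest change that passed, did not overlap and had a higher group mean of 50 or more. Genes named from the interaction, and Epcam, Cldn1, Mfge8, Cdh1, Naaa, Egr2, Ahr and Mafk, were chosen after their values were seen. The same holds for Cd207 and Ccl17 where their counts are given for Jag1 without FICZ. Replicate numbers of the TGFβ/IL-34/Jag1 group and of its FICZ counterpart mark a shared experiment by the code in their descriptions, and their deviations correlated (r = 0.153, 0.122 and 0.166). In the FICZ groups the codes also match by number (r = 0.0591 and 0.0578). In the other contrasts the numbers do not mark a shared experiment. Alternatives were quantile normalization, other pseudocounts, no filter, array weights, blocks for replicate number or experiment, fits of the contrast's groups alone, and leaving out each sample. Blocks for the experiment code of the authors' sample file, which differs from the description in 1 sample, and for the flow cell were added after seeing the data. Gene positions are GRCm39 from GENCODE vM39. Promoters are from RefSeq (GRCm38.p6), in which 7 of the 9 members were found.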

Additional observations from a re-analysis of the deposited data

Results flagged for a closer look

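The difference for FICZ in Id2 took opposite directions in the absence and presence of Jag1. Both TGFβ/IL-34/FICZ samples (8169.5 and 8799 normalized counts) were below both TGFβ/IL-34 samples (8999 and 9989), while the 3 TGFβ/IL-34/Jag1/FICZ samples (12707 to 16482) were above the 3 TGFβ/IL-34/Jag1 samples (7538 to 12378.5). Tested as an interaction, the difference was 0.65 ± 0.33 on the log2 scale (SE, limma adjusted p = 0.300), which did not pass. When the code in the sample descriptions was fitted as a block, the difference for FICZ without Jag1 was 0.0580, so that both directions were then the same. Groups of at most 3 samples do not allow a test for single outlying samples.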

How the results depend on the processing

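Of 755 values of the members under alternatives, 672 kept their direction and side of the threshold, 26 lost the call, 38 gained it and 19 changed direction. The cause was not tested.

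For FICZ with Jag1, 5 members passed with quantile normalization, 6 with array weights, 6 in a fit of the 2 groups alone, and 1 each with no filter, with the experiment code of the sample file or the flow cell fitted as a block (against 2). For both agents against neither, array weights and the 2 groups alone each gave 6 (against 0). Of all genes, array weights called 4123 for FICZ with Jag1 and 3558 for both agents, and the 2 groups alone 3614 and 3053. For Jag1 with FICZ, no member passed (0 against 1) with quantile normalization, no filter, array weights, the replicate block, either experiment code, the flow cell or the 2 groups alone. The lowest and highest adjusted p of Runx3 there were 0.0503 and 0.689 among the settings that lost it.

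The replicate block gave Runx3 an adjusted p of 0.0889 for Jag1 with FICZ and Batf3 0.0474 for FICZ with Jag1, and changed no other call of a member. Leaving out 1 sample gave 0 to 1 members for FICZ with Jag1, where 1389 to 1821 of all tested genes passed. In the other contrasts some of these fits leave 1 sample in a group, and their counts are not given here. The largest counts came without replicate 2 of TGFβ/IL-34/FICZ, which left replicate 1 alone.

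Directions changed for values near 0: with quantile normalization Irf4 for Jag1 without FICZ (−0.0401), and Irf8 (−0.0602) and Spi1 (−0.0384) for FICZ without Jag1, with the experiment code of the description Id2 for FICZ without Jag1 (0.0580), and with the flow cell Klf4 for FICZ with Jag1 (0.114). Leaving out 1 sample turned the direction of members that had not passed, with ranges of −0.00827 to 0.151 (Irf4, Jag1 without FICZ), −0.116 to 0.413 (Spi1) and −1.54 to 0.465 (Zeb2) for FICZ without Jag1, −0.634 to 0.2802 (Klf4) and −0.130 to 0.467 (Zeb2) for FICZ with Jag1, and −0.286 to 1.71 (Zeb2) in the interaction. For Jag1 with FICZ the ranges were −0.269 to 0.345 (Irf4), −0.0392 to 0.707 (Irf8), −1.36 to 0.560 (Batf3), −0.826 to 1.17 (Zeb2) and −0.144 to 0.661 (Maf). Over all genes, array weights called 2627 for Jag1 without FICZ, 3558 for both agents, 4123 for FICZ with Jag1, 0 for Jag1 with FICZ and 8 in the interaction (against 864, 587, 2312, 264 and 182). The groups of the contrast alone gave 1303, 3053, 3614 and 8 for the first 4. For FICZ without Jag1, 0 to 5 genes passed (against 3). In the interaction no filter gave 74 and the description's experiment code 44. Quantile normalization moved the median of all genes in the interaction from 0.07 to −0.03.

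Of the genes named from the lists, 8 of 16 kept their call under every alternative for Jag1 without FICZ, 1 of 12 for both agents, 16 of 23 for FICZ with Jag1, 0 of 9 for Jag1 with FICZ and 0 of 7 in the interaction. The exceptions for Jag1 without FICZ were Klf2, Spib, Batf2, Myb, C1qc, Cd209a, Epcam and Egr2, and for FICZ with Jag1 they were Runx1, Fli1, Klf10, Maff, Mafk, Ahr and Naaa. The one kept for both agents was Ets1.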
